A study of Arabidopsis thaliana with 12 samples.

Results

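The genes described here are 8 Arabidopsis thaliana genes that act at the surface of the embryo, where it borders the endosperm, the tissue that feeds it. They were picked by name and function out of 33602 genes in the expression table, with earlier results of these data known. They are ATML1 (AT4G21750), PDF2 (AT4G04890), ACR4 (AT3G59420), ALE1 (AT1G62340), ALE2 (AT2G20300), GSO1 (AT4G20140), GSO2 (AT5G44700) and FDH (AT2G26250). All 8 had values in all 12 libraries.

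The libraries came from dissected Col-0 embryos at the torpedo stage, and each of the 4 groups had 3 biological replicates. The seed parent was always a diploid wild-type (wt) plant, and only the pollen donor changed. The 3x nrpd1 embryos were triploid, taken at 8 days after pollination (DAP) from a tetraploid nrpd1 pollen donor, and the 3x wt embryos were triploid, taken at 8 DAP from a tetraploid wt donor. The 2x nrpd1 and 2x wt embryos were diploid, taken at 6 DAP from diploid nrpd1 and wt donors. NRPD1 encodes the largest subunit of RNA polymerase IV, which makes small RNAs in pollen, and the labels call this donor pol4. The nrpd1 embryos also inherited a wild-type copy from the mother. In 3x wt seeds the endosperm stays largely uncellularized, whereas it is mostly cellularized in 3x nrpd1 seeds and cellularizes in those of the diploid groups. Triploid and diploid embryos were matched by stage and not by age, so ploidy and age cannot be told apart. The ages here are those of the labels, and the study's text is not uniform on the age of the 3x nrpd1 embryos. Each library pooled many embryos, so fewer cells of a type and less RNA per cell cannot be told apart either.

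The deposited unit was RPKM, reads per kilobase of gene, scaled to the size of the library, so levels can be compared between genes. Steps in the low values gave about 7185976 to 11602555 counted fragments per library in 3x nrpd1, 6851604 to 9101778 in 3x wt, 8532730 to 13602761 in 2x nrpd1 and 9443798 to 13025656 in 2x wt. Replicate 3 of 3x nrpd1 stood apart. Its log2 values, relative to the mean of its group, fell with exon length across 18475 genes (Pearson's r = -0.51, across genes, which are not independent replicates), while r was 0.43 and 0.35 in the other 3x nrpd1 libraries and between -0.13 and 0.15 in the remaining 9. Deviations from a group mean cancel out for each gene, so the r values of libraries in a group depend on each other. The members are long genes, and the members' changes in comparisons with 3x nrpd1 are given with and without that library. The embryo label was checked against markers of other seed tissues. Of 14 endosperm markers, 2 or 3 reached 1 RPKM in any library and 5 to 11 were listed at 0. Of 13 seed coat markers, 4 to 6 reached 1 RPKM.

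The outer cell layer of the embryo, the protodermis, lays down a cuticle of cutin and waxes that separates the embryo from the endosperm. ATML1 and PDF2 are related transcription factors of the class IV homeodomain-leucine zipper (HD-ZIP IV) family that give this layer its identity, and they bind a short element called the L1 box. Closure of the cuticle is monitored by a peptide signal: the embryo makes the precursor TWS1, the subtilisin-like protease ALE1, made mainly in the endosperm, cuts it, and the receptor kinases GSO1 and GSO2 on the embryo perceive the product. ACR4 and ALE2 are receptor-like kinases that act in the same outer layer. FDH, also named KCS10, is a 3-ketoacyl-CoA synthase of very-long-chain fatty acid synthesis, and plants that lack it fuse their organs.

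The L1 box was searched in the promoters because 2 of the members are the factors known to bind it. The letters TAAATGCA and TAAATGTA were searched on both strands, from 250 bases before the annotated gene start to 50 after it, in the RefSeq TAIR10.1 assembly. GSO1 and FDH held a match, 2 of the 8 members, against 5.01% of 32835 promoters of all genes. The box began 106 bases before the start in GSO1 and 54 bases before it in FDH. When the search was widened to 1000 bases before the start, a choice made after seeing the data, ATML1 itself joined them with a box 509 bases before its start, making 3 of 8 members against 15.3% of all genes. The 3 stretches are shown 5′ to 3′ on the strand of the gene with the box in capitals, from chr4:10883785-10883852 (plus strand, GSO1), chr2:11173295-11173362 (minus strand, FDH) and chr4:11554500-11554567 (plus strand, ATML1). The boxes of GSO1 and ATML1 share the letters TAAATGTA, and that of FDH reads TAAATGCA.
GSO1: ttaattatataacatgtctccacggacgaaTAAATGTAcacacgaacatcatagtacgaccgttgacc
FDH: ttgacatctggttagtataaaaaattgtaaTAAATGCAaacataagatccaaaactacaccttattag
ATML1: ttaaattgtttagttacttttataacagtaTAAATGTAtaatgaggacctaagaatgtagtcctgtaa

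Averaged over the 12 libraries, FDH was the most abundant of the 8 at 192 RPKM, followed by PDF2 at 87.8 and ATML1 at 53.6 RPKM. The 4 receptor kinases formed a narrow band, with GSO1 at 26.1, GSO2 at 24.2, ALE2 at 23.7 and ACR4 at 15.7 RPKM. ALE1 was far below the rest, at 1.81 RPKM. It lay at percentile 37.5 of the genes with any signal, whereas the other members lay between percentiles 72.1 and 97.6. PDF2 and ALE1 had their lowest value in a 3x wt library, and the other 6 members in replicate 3 of 3x nrpd1.

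**Figure D1:**
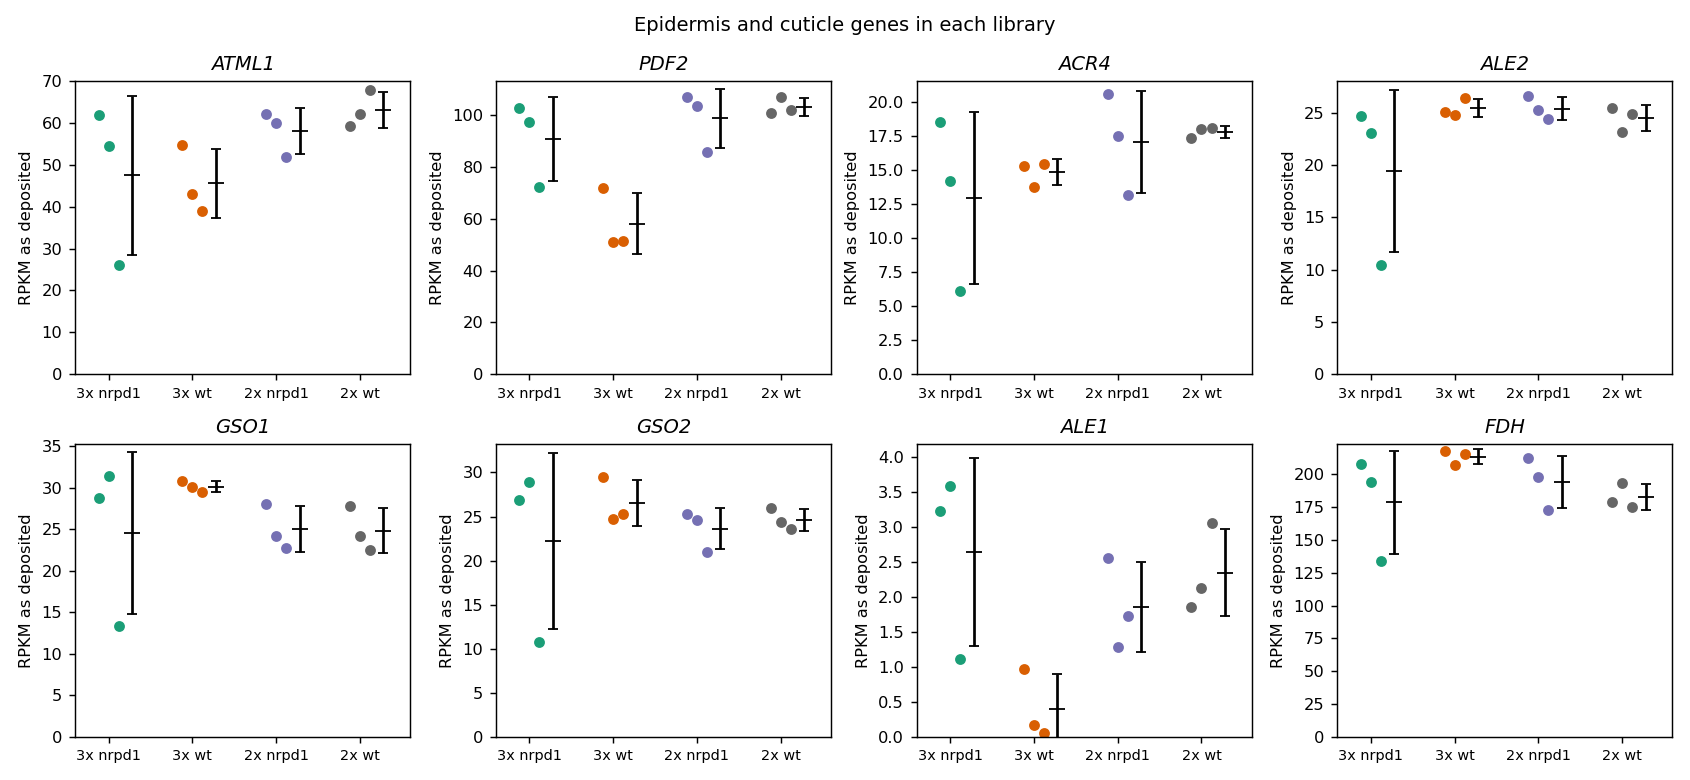
RPKM as deposited of each of the 8 genes (y axis, from 0) in the 3 libraries of 3x nrpd1, 3x wt, 2x nrpd1 and 2x wt embryos (x axis; points, replicates 1 to 3 from left to right). The black mark is the group mean with its SD (n = 3), ending at 0 where it would run below. PDF2 and ALE1 are lowest in 3x wt, and the rightmost 3x nrpd1 point is low for ATML1, ACR4, ALE2, GSO1, GSO2 and FDH.

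The comparison of 3x wt with 2x wt embryos sets triploid embryos at 8 DAP, in largely uncellularized endosperm, against diploid embryos at 6 DAP. Ploidy, age and the state of the endosperm change together here and cannot be told apart. Of the 8 genes, 3 were higher in 3x wt (GSO1, GSO2 and FDH), 3 were lower (ATML1, PDF2 and ALE1), and ACR4 and ALE2 did not pass. Changes are given on the log2(RPKM + 0.5) scale after median-ratio scaling, with limma p-values adjusted by Benjamini-Hochberg over all genes tested, and a gene passed at an adjusted p under 0.05. On that basis 27.0% of 17965 genes tested were higher and 24.3% lower, so the members' shares lie near the background. The median change was 0.06 over the members and -0.00 over all genes tested. A gene was called differentially expressed (DEG) when it passed and its log2 change also exceeded 1 in size. This held for ALE1 alone among the members, on the lower side, where 4.79% of all genes were called, and for no member on the higher side, where 11.1% were.

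Both L1-layer transcription factors were lower in 3x wt, PDF2 more than ATML1. PDF2 was at 71.9, 51.0 and 51.6 RPKM in 3x wt, against 101, 107 and 102 RPKM in 2x wt. The groups lay well apart, and the log2 change was -0.67 (SE 0.12, adjusted p = 0.0013 by limma). ATML1 was at 54.9, 43.1 and 39.0 RPKM in 3x wt, against 59.4, 62.1 and 68.0 RPKM in 2x wt. These groups did not overlap, though the highest 3x wt library came close to the lowest 2x wt library, and the change of -0.31 (SE 0.11, adjusted p = 0.0405) was the smaller of the pair. ATML1 passed without replicate 1 of 3x wt and failed without any of the other 5 libraries (adjusted p from 0.0571 to 0.171). The ratio of PDF2 to ATML1 within a library, which no scaling between libraries can move, averaged 1.27 ± 0.08 in 3x wt and 1.64 ± 0.12 in 2x wt (SD, n = 3 each). All 3 ratios of 3x wt lay below those of 2x wt, at p = 0.10 in a two-sided exact permutation test, the smallest p that 3 against 3 allows, and 0.40 after adjustment over the 8 ratio comparisons made.

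ALE1, the protease on the endosperm side of the signal, showed the largest change of the 8. It was at 0.970, 0.173 and 0.0554 RPKM in 3x wt, against 1.86, 2.13 and 3.05 RPKM in 2x wt. In counted fragments this was 20, 4 and 1 in 3x wt and 62, 73 and 76 in 2x wt, or 25 against 211 in all. No 3x wt library came near a 2x wt library, and the log2 change was -1.69 (SE 0.38, adjusted p = 0.0054), a value the added 0.5 RPKM holds down at such low levels. ALE1 passed the filter on low values (at least 1 RPKM in 3 libraries) through the 2x wt libraries alone, and a gene that enters a fit this way had to differ. Without that filter the change was -1.69 (adjusted p = 0.0098), and it lay between -2.11 and -1.40 with any 1 library left out (adjusted p up to 0.0432).

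The receptor kinases moved little. GSO1 was at 30.8, 30.1 and 29.5 RPKM in 3x wt, against 27.8, 24.2 and 22.5 RPKM in 2x wt, with no overlap and a log2 change of 0.45 (SE 0.11, adjusted p = 0.0069). The change was 0.28 with RPKM as deposited (adjusted p = 0.0417), and GSO1 did not pass with all 12 libraries in one fit (0.46, adjusted p = 0.0873). In the TAIR10.1 annotation the last 337 of the 4274 exon bases of GSO1 overlap a gene on the other strand, AT4G20150. The library kit does not mark strand, so reads from the pair cannot be told apart there. Whether the annotation behind the deposited RPKM holds this overlap, or those of other genes given below, was not tested. AT4G20150 stood at 157 to 173 RPKM in 3x wt and 159 to 174 RPKM in 2x wt, with a change of 0.15 that did not pass (adjusted p = 0.160). If reads were spread evenly along AT4G20150 and those in the shared bases had been counted to both genes, the shared reads would come to 41.0 to 46.3% of the GSO1 signal in 3x wt and 45.2 to 60.4% in 2x wt. Their part in the GSO1 change was not tested. GSO2, the partner receptor of GSO1, was at 29.5, 24.7 and 25.3 RPKM in 3x wt, against 26.0, 24.4 and 23.5 RPKM in 2x wt. These ranges overlapped, and the change of 0.27 (SE 0.10, adjusted p = 0.0428) failed the test without any 1 of the 6 libraries (adjusted p from 0.0551 to 0.152) and with RPKM used as deposited (0.10, adjusted p = 0.432). ALE2 was at 25.1, 24.8 and 26.4 RPKM in 3x wt, against 25.5, 23.1 and 24.9 RPKM in 2x wt, and its change of 0.22 (95% interval 0.02 to 0.42) missed the threshold (adjusted p = 0.0643). It passed without replicate 1 of 3x wt (0.27, adjusted p = 0.0407). ACR4 was at 15.3, 13.8 and 15.5 RPKM in 3x wt, against 17.3, 18.1 and 18.1 RPKM in 2x wt. Its deposited values did not overlap, yet after scaling the change was -0.09 (95% interval -0.31 to 0.12, adjusted p = 0.445).

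FDH, the fatty acid elongation enzyme, was at 217, 207 and 216 RPKM in 3x wt, against 179, 194 and 175 RPKM in 2x wt. Every 3x wt library was above every 2x wt library, with a log2 change of 0.39 (SE 0.09, adjusted p = 0.0041). FDH passed under every alternative tried, though its change was 0.23 with RPKM as deposited and 0.21 under quantile normalization.

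**Figure D2:**
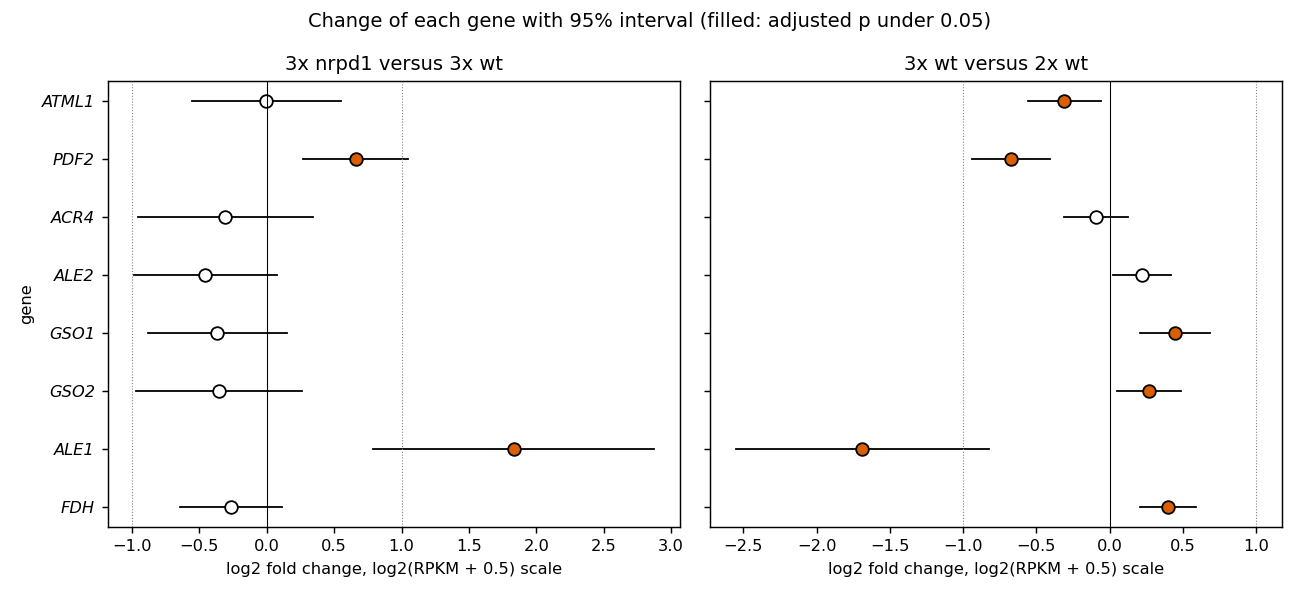
Log2 change of each of the 8 genes (x axis, log2(RPKM + 0.5) scale) with its 95% interval, in 3x nrpd1 versus 3x wt (left) and 3x wt versus 2x wt (right). Filled points passed at an adjusted p under 0.05, and dotted lines mark a log2 change of 1 in size. PDF2 and ALE1 are filled in both panels and lie on opposite sides of 0.

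The comparison of 3x nrpd1 with 3x wt embryos holds ploidy fixed, and age as the labels give it, and changes the pollen donor, and with it the state of the endosperm. PDF2 and ALE1, 2 of the 8 genes, were higher in 3x nrpd1, where 5.93% of 17913 genes tested passed in that direction, and none was lower, where 8.45% passed. The median change of the members was -0.29, against -0.01 over all genes tested. The other 6 had changes from -0.46 (ALE2) to -0.00 (ATML1), none past the test.

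PDF2 was at 103, 97.6 and 72.4 RPKM in 3x nrpd1, against 71.9, 51.0 and 51.6 RPKM in 3x wt. The lowest 3x nrpd1 library sat just above the highest 3x wt library, and the log2 change was 0.66 (SE 0.17, adjusted p = 0.0369 by limma). PDF2 kept passing without replicate 3 of 3x nrpd1 (0.69, adjusted p = 0.0067). It did not pass with RPKM as deposited (0.64, adjusted p = 0.0696), nor without replicate 1 or 2 of 3x nrpd1 (adjusted p = 0.101 and 0.0765) or replicate 2 or 3 of 3x wt (0.207 and 0.198), while the change stayed between 0.58 and 0.79 with any 1 library left out. The ratio of PDF2 to ATML1 averaged 2.07 ± 0.61 in 3x nrpd1 and 1.27 ± 0.08 in 3x wt (SD, n = 3 each) and did not overlap, again at the smallest exact permutation p of 0.10 (0.40 adjusted). The 3x nrpd1 mean leans on replicate 3, at 2.77, against 1.66 and 1.79 in the other libraries.

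ALE1 was at 3.24, 3.59 and 1.11 RPKM in 3x nrpd1, against 0.970, 0.173 and 0.0554 RPKM in 3x wt. In counted fragments this was 99, 70 and 21 in 3x nrpd1 and 20, 4 and 1 in 3x wt. The groups did not overlap, but replicate 3 of 3x nrpd1 and replicate 1 of 3x wt were close. The log2 change was 1.83 (SE 0.45, adjusted p = 0.0330), and ALE1 was again the only DEG among the members, on the higher side, where 3.18% of all genes were called. It passed the filter through the 3x nrpd1 libraries alone. Without the filter and without replicate 3 of 3x nrpd1, an alternative added after seeing the data, the change was 2.19 (adjusted p = 0.0159). It lost the call without replicate 2 (1.69, adjusted p = 0.154) or replicate 3 (1.56, adjusted p = 0.152) of 3x wt and, with no filter, without replicate 1 (1.69, adjusted p = 0.105) or replicate 2 (1.63, adjusted p = 0.0950) of 3x nrpd1.

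Of the members that did not pass, ATML1 was at 61.9, 54.6 and 26.1 RPKM in 3x nrpd1, against 54.9, 43.1 and 39.0 RPKM in 3x wt. Its 3x nrpd1 libraries thus lay on both sides of the 3x wt range, and the change of -0.00 became 0.25 (adjusted p = 0.189) without replicate 3 of 3x nrpd1 and 0.38 (adjusted p = 0.0991) when the exon-length trend of each library was removed, also chosen after seeing the data. ACR4 was at 18.5, 14.2 and 6.11 RPKM in 3x nrpd1 and ALE2 at 24.7, 23.1 and 10.5 RPKM. GSO1 was at 28.8, 31.4 and 13.4 RPKM and GSO2 at 26.9, 29.0 and 10.7 RPKM in 3x nrpd1. In all 4 kinases replicate 3 lay far below every 3x wt library. The changes versus 3x wt were -0.31 for ACR4, -0.46 for ALE2, -0.37 for GSO1 and -0.35 for GSO2. With that library left out they were 0.02, -0.20, -0.11 and -0.03 in that order, and none passed. With the length trend removed, the change in 3x nrpd1 versus 3x wt was -0.00 for GSO1 and 0.02 for GSO2. AT4G20150, the short gene on the opposite strand of GSO1, stood at 376 RPKM in replicate 3, against 161 and 169 RPKM in the other 3x nrpd1 libraries. If spread evenly, its reads in the shared bases would come to 221% of the GSO1 signal in replicate 3, and not all of them can then have been counted to GSO1. FDH was at 208, 194 and 134 RPKM in 3x nrpd1, with a change of -0.26 (adjusted p = 0.304), and -0.20 without replicate 3 of 3x nrpd1 (adjusted p = 0.0794).

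Whether the change with ploidy differed between the donors was tested as an interaction over all 12 libraries, as the 3x minus 2x change with the wt donor less that with the nrpd1 donor. PDF2 (-0.68, SE 0.19, adjusted p = 0.0393) and ALE1 (-2.12, SE 0.55, adjusted p = 0.0271) passed on the lower side, where 4.97% of 18561 genes tested did, and ALE1 was also a DEG there, as 2.77% were. No member passed on the higher side, where 6.74% did. FDH (0.40, adjusted p = 0.169) and ALE2 (0.56, adjusted p = 0.185) came next by p. Without replicate 3 of 3x nrpd1 both calls stood, where 9.59% of all genes tested passed on the lower side, at -0.72 (adjusted p = 0.0138) for PDF2 and -2.48 (adjusted p = 0.0061) for ALE1. With any other single library left out, PDF2 had an adjusted p up to 0.125 and ALE1 up to 0.0829, with every estimate still below 0.

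Within the nrpd1 donor, 3x nrpd1 and 2x nrpd1 embryos gave no member that passed in limma, and no member had an unadjusted p under 0.05. Of 17585 genes tested, 0.961% were higher and 0.0227% lower. PDF2 was at 103, 97.6 and 72.4 RPKM in 3x nrpd1, against 107, 103 and 85.9 RPKM in 2x nrpd1, a change of 0.01 (95% interval -0.35 to 0.36). ALE1 was at 3.24, 3.59 and 1.11 RPKM in 3x nrpd1, against 2.56, 1.28 and 1.73 RPKM in 2x nrpd1. Its change of 0.43 (95% interval -0.40 to 1.26) is compatible with changes of either sign, and the 3x nrpd1 range enclosed that of 2x nrpd1. Leaving out replicate 3 of 3x nrpd1, no member passed either, while 2.45% of all genes tested were higher and 0.311% lower. The change of ALE1 was then 0.79 (adjusted p = 0.191), that of GSO1 0.30 and that of GSO2 0.27, against 0.02 and -0.08 with all 3 libraries, and the other 5 lay between -0.06 and 0.09.

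Between the diploids, 2x nrpd1 and 2x wt embryos gave no member that passed in limma and none with an unadjusted p under 0.05, and 0.00% of 17472 genes tested passed in either direction. The largest member change was -0.26 for ALE1 (95% interval -0.84 to 0.32), and the other 7 lay between -0.10 (ATML1) and 0.11 (FDH). All 8 genes overlapped between these groups, and the share of all genes that did so was not counted. In 2x nrpd1, ATML1 was at 62.3, 60.0 and 51.9 RPKM, ACR4 at 20.6, 17.5 and 13.2 RPKM, and ALE2 at 26.6, 25.3 and 24.4 RPKM. GSO1 was at 28.1, 24.2 and 22.7 RPKM, GSO2 at 25.3, 24.6 and 20.9 RPKM, and FDH at 212, 198 and 173 RPKM there. The 2x wt values given above for these genes span the same levels.

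Ordered by group mean, PDF2 ran from 2x wt (103 RPKM) through 2x nrpd1 (98.8) and 3x nrpd1 (90.9) to 3x wt (58.1), and the ranges of neighbours did not overlap only at the last step. ALE1 ran from 3x nrpd1 (2.65 RPKM) through 2x wt (2.35) and 2x nrpd1 (1.86) to 3x wt (0.397), and again only the step down to 3x wt was free of overlap. For ATML1, ACR4, ALE2, GSO2 and FDH every pair of neighbours overlapped. GSO1 was highest in 3x wt (30.1 RPKM), apart from 2x nrpd1 (25.0 RPKM) as the next group, and the remaining neighbours overlapped. How often neighbouring groups overlap over all genes was not counted. Without replicate 3, the 3x nrpd1 mean was 100.2 RPKM for PDF2, second to 2x wt, and 30.1 RPKM for GSO1, beside 3x wt. The 3x nrpd1 mean of ALE1 was then 3.41 RPKM and its range lay above that of 2x wt.

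The signalling partners of these genes were described from a list of 13. In 3x wt versus 2x wt, 10 were tested, of which 3 were higher (TWS1, MPK3 and DEK1) and 1 was lower (KRS), with a median of -0.02. Over all genes tested, 27.0% were higher and 24.3% lower. KRS encodes KERBEROS, a small endosperm peptide required to form the embryo sheath, and ZOU, also named RGE1, is the endosperm transcription factor known to drive both ALE1 and KRS. In the triploids, KRS was at 33.2, 30.6 and 38.2 RPKM with the nrpd1 donor, against 9.72, 2.30 and 1.11 RPKM with the wt donor. In the diploids it was at 29.6, 23.5 and 27.7 RPKM with the nrpd1 donor, against 19.8, 30.3 and 31.7 RPKM with the wt donor. The 3x wt libraries were the 3 lowest of the 12, as they were for ALE1. KRS was lower in 3x wt than in 2x wt (-2.77, SE 0.54, adjusted p = 0.0024) and higher in 3x nrpd1 than in 3x wt (3.28, adjusted p = 0.0095, and 3.08, adjusted p = 0.0083, without replicate 3 of 3x nrpd1), a call that was lost without replicate 2 of 3x wt (3.10, adjusted p = 0.0651). Its interaction value was -3.23 (adjusted p = 0.0099, and up to 0.0558 with 1 library left out, with or without the filter).

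In the triploids, ZOU was at 1.90, 2.30 and 1.65 RPKM with the nrpd1 donor, against 0.650, 0.187 and 0 RPKM with the wt donor. In the diploids it was at 1.88, 0.250 and 0.796 RPKM with the nrpd1 donor, against 0.874, 0.912 and 1.44 RPKM with the wt donor. These levels rest on few fragments, 60 in 3x nrpd1, 8 in 3x wt, 37 in 2x nrpd1 and 43 in 2x wt, summed over 3 libraries each. ZOU was higher in 3x nrpd1 than in 3x wt (1.74, adjusted p = 0.0184), having passed the filter through 3x nrpd1 alone. Without the filter the change was 1.74 (adjusted p = 0.0180), and 1.76 (adjusted p = 0.0201) when replicate 3 of 3x nrpd1 was left out as well. ZOU lost the call without replicate 2 (adjusted p = 0.103) or replicate 3 (adjusted p = 0.0930) of 3x wt. It did not reach the filter in 3x wt versus 2x wt, and in the fit without the filter its change was -1.01 (adjusted p = 0.0382), a call that held without replicate 1 of 3x wt (-1.33, adjusted p = 0.0064) and failed without any of the other 5 libraries (adjusted p from 0.0678 to 0.123). The plot of the 3 genes shows the same 3 low libraries for ALE1 and KRS, all from 3x wt.

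**Figure D3:**
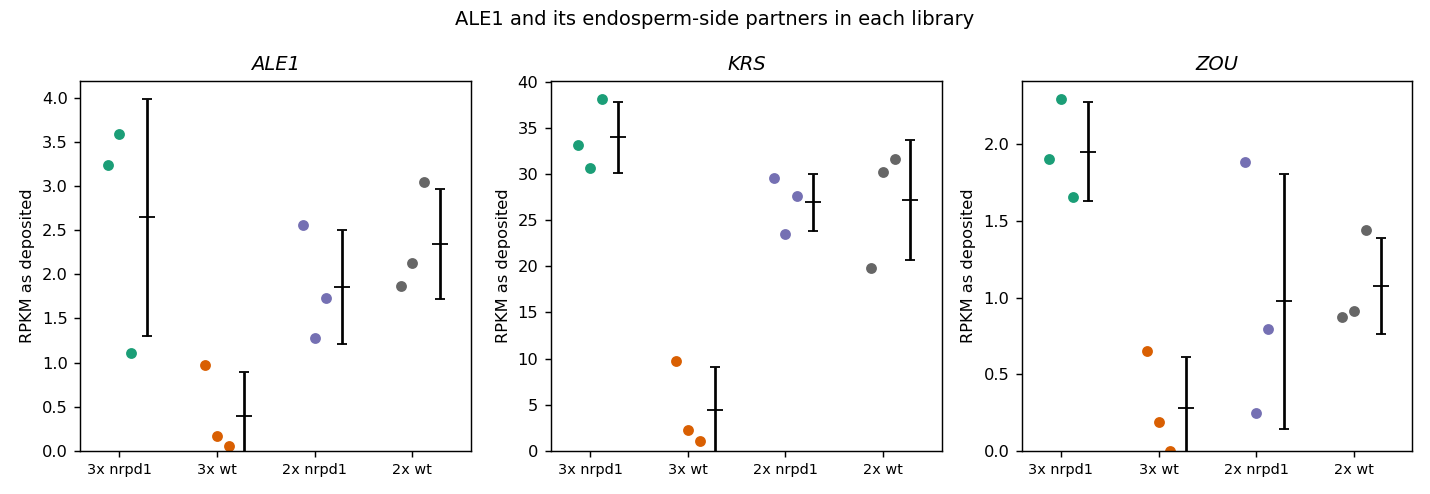
RPKM as deposited (y axis, from 0) of ALE1, KRS and ZOU in the 3 libraries of 3x nrpd1, 3x wt, 2x nrpd1 and 2x wt embryos (x axis; points, replicates 1 to 3 from left to right). Black marks are group means with SD (n = 3), ending at 0 where they would run below. The 3x wt libraries are the lowest for ALE1 (up to 0.970 RPKM) and KRS (up to 9.72 RPKM), and ZOU overlaps between 3x wt and 2x nrpd1.

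ALE1, KRS and ZOU are known as endosperm genes, and the embryos were dissected out of the endosperm and washed. The summed level of the 14 endosperm markers, which do not include these 3, was 23.0 to 74.9 RPKM in 3x nrpd1, 87.7 to 95.8 in 3x wt, 54.4 to 66.8 in 2x nrpd1 and 55.0 to 67.8 in 2x wt. Most of this sum is 1 gene, the sucrose transporter SUC5, at 82.4 to 91.3 RPKM in 3x wt and 52.9 to 65.0 RPKM in 2x wt. Of the 3 endosperm markers tested in 3x wt versus 2x wt, SUC5 was higher in 3x wt (0.77, adjusted p = 0.00032). PHE1 was at 1.22, 1.96 and 1.56 RPKM in 3x wt and listed at 0 in all 2x wt libraries, and it entered the test through 3x wt alone. AGL80 was at 1.25, 1.66 and 0.648 RPKM in 3x wt, against 2.11, 3.27 and 1.69 RPKM in 2x wt, and did not pass (-0.65, adjusted p = 0.115). The summed level of the 13 seed coat markers was 117 to 191 RPKM in 3x nrpd1, 276 to 340 in 3x wt, 177 to 199 in 2x nrpd1 and 163 to 176 in 2x wt. Of 6 seed coat markers tested, 3 were higher in 3x wt than in 2x wt (BAN, TT10 and SBT1.7) and 1 was lower (TT12), and these 3 passed on the lower side in 3x nrpd1 versus 3x wt. Only 4 seed coat markers were tested in 2x nrpd1 versus 2x wt, so some of the 6 passed the filter only with 3x wt libraries. The 12 inner embryo and meristem markers summed to 117 RPKM in replicate 3 of 3x nrpd1 and to 227 to 298 RPKM in the other 11 libraries. Of these 12, 5 were higher in 3x wt than in 2x wt and none was lower, where 27.0% and 24.3% of all genes tested were. In 3x nrpd1 versus 3x wt none of the 12 was higher and 2 were lower, where 5.93% and 8.45% of all genes tested were. The part of carried-over tissue in the value of any gene described here was not tested.

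On the embryo side of the signal, TWS1, the precursor that ALE1 cuts, was at 236, 209 and 207 RPKM in 3x wt, against 186, 170 and 173 RPKM in 2x wt. Precursor and protease thus moved in opposite directions in 3x wt, TWS1 being higher by 0.47 (SE 0.08, adjusted p = 0.0012). TWS1 did not pass with all 12 libraries in one fit (adjusted p = 0.0723). In 3x nrpd1 it was at 210, 198 and 288 RPKM, with a change of 0.09 from 3x wt (adjusted p = 0.830), and -0.20 (adjusted p = 0.0864) without replicate 3 of 3x nrpd1. MPK3, a stress-responsive MAP kinase, was at 84.3, 86.4 and 94.7 RPKM in 3x wt, against 51.2, 25.3 and 64.0 RPKM in 2x wt. Every 3x wt library was higher, by 1.18 on the log2 scale (SE 0.26, adjusted p = 0.0047). In 3x nrpd1, MPK3 was at 52.3, 60.5 and 50.1 RPKM and fell short of 3x wt (-0.68, adjusted p = 0.0280), a call lost without any 1 of 5 libraries (adjusted p from 0.0653 to 0.154) and kept without replicate 3 of 3x nrpd1. Its partner MPK6 changed by -0.03 in 3x wt versus 2x wt (adjusted p = 0.834).

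DEK1, a membrane calpain needed for epidermal fate, was higher by 0.27 in 3x wt than in 2x wt at an adjusted p of 0.0495, and not with RPKM as deposited (0.10, adjusted p = 0.409). The remaining partners tested did not pass. They were the co-receptors SERK1 (-0.01), SERK2 (-0.04) and BAK1 (0.18), the sulfotransferase TPST (-0.04) and the transcription factor ICE1 (-0.10). CIF1 and CIF2, ligands of GSO1 in the root, were listed at 0 in all 12 libraries.

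Among 14 other HD-ZIP IV genes, 8 were tested in 3x wt versus 2x wt, of which HDG5 was higher and HDG2 and HDG12 were lower, with a median of -0.20. The shares over all genes tested were 27.0% higher and 24.3% lower. HDG12, a close relative active in the epidermis, was at 8.61, 6.74 and 4.82 RPKM in 3x wt, against 13.1, 15.9 and 15.8 RPKM in 2x wt (-0.96, adjusted p = 0.0020). HDG2 changed by -0.50 (adjusted p = 0.0085), and HDG5 by 0.56 (adjusted p = 0.0011). The call of HDG2 was lost in places, with an adjusted p up to 0.0503 with 1 library left out and 0.0539 in another setting. ATML1 and PDF2 thus shared their direction with HDG2 and HDG12 and not with HDG5. In 3x nrpd1 versus 3x wt, 9 were tested and HDG5 alone passed, on the lower side (-0.88, adjusted p = 0.0331), a call lost without replicate 1 of 3x nrpd1 (adjusted p = 0.0566) or any 3x wt library (0.0913 to 0.152). Without replicate 3 of 3x nrpd1, HDG12 passed as higher (0.89, adjusted p = 0.0156). Of the 4 kinases related to ACR4, 3 were tested and CRR3 was higher in 3x wt than in 2x wt (1.47, adjusted p = 0.0016), at 1.93, 2.11 and 2.86 RPKM in 3x wt, against 0.615, 0.369 and 0.822 RPKM in 2x wt. CRR3 passed the filter through 3x wt alone, and without the filter its change was 1.47 (adjusted p = 0.0026).

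Both markers of the differentiated outer layer were higher in 3x wt, as were 3 of 6 seed coat and 5 of 12 inner embryo markers tested, while ATML1 and PDF2 were lower. Some of those 6 seed coat markers passed the filter only with 3x wt libraries, and 27.0% of all genes tested were higher. PDF1, a classical L1-layer transcript whose promoter holds an L1 box, was at 4003, 4056 and 3874 RPKM in 3x wt, against 2314, 2431 and 2758 RPKM in 2x wt (0.84, adjusted p = 0.00036). Its RPKM ranges lay far apart, yet under quantile normalization, which forces one distribution on all libraries, the change turned to -0.34 (adjusted p = 0.0469). LTP1, an epidermal lipid transfer protein, was at 29.6, 35.8 and 54.0 RPKM in 3x wt, against 21.4, 18.3 and 13.9 RPKM in 2x wt (1.27, adjusted p = 0.0018). In 3x nrpd1, PDF1 was at 2803, 2399 and 1254 RPKM (-0.95 versus 3x wt, adjusted p = 0.114) and LTP1 at 16.4, 16.5 and 21.5 RPKM. Against 3x wt, LTP1 fell by 1.06 (adjusted p = 0.0485) and was a DEG, on a side where 6.49% of all genes were. Without replicate 3 of 3x nrpd1 LTP1 kept its call (-1.31, adjusted p = 0.0049) and PDF1 passed as well (-0.73, adjusted p = 0.000845), whereas LTP1 failed without any of the other 5 libraries (adjusted p from 0.0591 to 0.188).

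FDH belongs with the enzymes of very-long-chain fatty acids and wax. Of 14 genes of that list, which leaves out FDH, 10 were tested in 3x wt versus 2x wt, 8 were higher and none was lower, where 27.0% and 24.3% of all genes tested were, with a median of 0.63, against -0.00 over all genes tested. The count of higher genes was 7 with RPKM as deposited and 7 under quantile normalization. KCR1, the reductase that follows the FDH step, was at 196, 206 and 225 RPKM in 3x wt, against 102, 97.3 and 100.4 RPKM in 2x wt (1.23, SE 0.09, adjusted p = 1.1e-05). LTPG1, a lipid transfer protein of wax export, was higher by 0.89 (adjusted p = 7.3e-05). CER2, which extends chains for wax, was at 1.63, 2.04 and 2.24 RPKM in 3x wt, against 0.607, 0.491 and 0.677 RPKM in 2x wt (1.29, adjusted p = 0.0022). It passed the filter through 3x wt alone, and without the filter its change was 1.28 (adjusted p = 0.0023). CER2 shares 96 of its 1627 exon bases with a gene on the other strand, AT4G24520, at 24.7 to 26.3 RPKM in 3x wt and 22.7 to 26.4 RPKM in 2x wt. If spread evenly, reads of AT4G24520 in those bases would come to 65.3% or more of the CER2 signal in every 3x wt library and 229.8% or more in every 2x wt library. Not all of them can then have been counted to CER2, and their part in its change was not tested. The smallest rises that passed were those of CER10 (0.40), CER6 (0.45) and PAS2 (0.52), against 0.39 for FDH in the same fit. In 3x nrpd1 versus 3x wt none of the 10 tested passed in limma, with a median of -0.22 and 3 genes at an unadjusted p under 0.05. Without replicate 3 of 3x nrpd1, 4 passed as lower, where 16.5% of 17651 genes tested did, against 8.45% with it. Among them were KCR1 (-0.52, adjusted p = 0.0052), CER2 (-1.19, adjusted p = 0.0280) and LTPG1 (-0.59, adjusted p = 0.0023).

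Of 16 cutin genes listed, 12 were tested in 3x wt versus 2x wt, 4 were higher and 3 lower, with a median of 0.03. These counts lie near the 27.0% and 24.3% of all genes tested. GPAT4, an acyltransferase of cutin monomer synthesis, was at 7.91, 13.1 and 12.4 RPKM in 3x wt, against 3.16, 3.52 and 3.54 RPKM in 2x wt (3.25-fold higher, adjusted p = 0.00017). The fatty acid hydroxylases CYP86A2 (log2 change 1.68, adjusted p = 9.6e-06) and CYP86A4 (1.20, adjusted p = 8.0e-05) were higher as well, and CYP86A2 shares 127 bases with a gene on the other strand, AT4G00370. If spread evenly, reads of AT4G00370 there would come to 5.96 to 9.60% of the CYP86A2 signal in 3x wt and 18.6 to 24.8% in 2x wt, and their part was not tested. HTH (-0.62, adjusted p = 0.0035), an enzyme whose loss fuses organs as that of FDH does, and the acyl-CoA synthetases LACS1 (-0.58, adjusted p = 0.0031) and LACS2 (-0.32, adjusted p = 0.0110) were lower. LACS2 failed without replicate 2 of 3x wt (adjusted p = 0.0572) and with all 12 libraries in one fit (0.226). In 3x nrpd1 versus 3x wt 12 were tested, none was higher and 2 were lower, GPAT4 (-1.33, adjusted p = 0.0192, a DEG) and CYP86A2 (-0.86, adjusted p = 0.0243). Both calls were lost without replicate 1 of 3x nrpd1 (adjusted p = 0.0541 and 0.0704) or replicate 2 or 3 of 3x wt (0.107 to 0.132), and that of CYP86A2 also without replicate 2 of 3x nrpd1 (0.0660). Without replicate 3 of 3x nrpd1, 3 were higher and 3 lower, where 13.6% and 16.5% of all genes tested were, against 5.93% and 8.45% with it. Among 8 transcription factors of cuticle synthesis, 4 were tested and MYB94 was higher in 3x wt than in 2x wt (0.40, adjusted p = 0.0489). MYB94 kept this call without replicate 3 of 3x wt and failed without any of the other 5 libraries (adjusted p from 0.0741 to 0.152), with RPKM as deposited (0.248) and without the filter (0.0813).

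**Figure D4:**
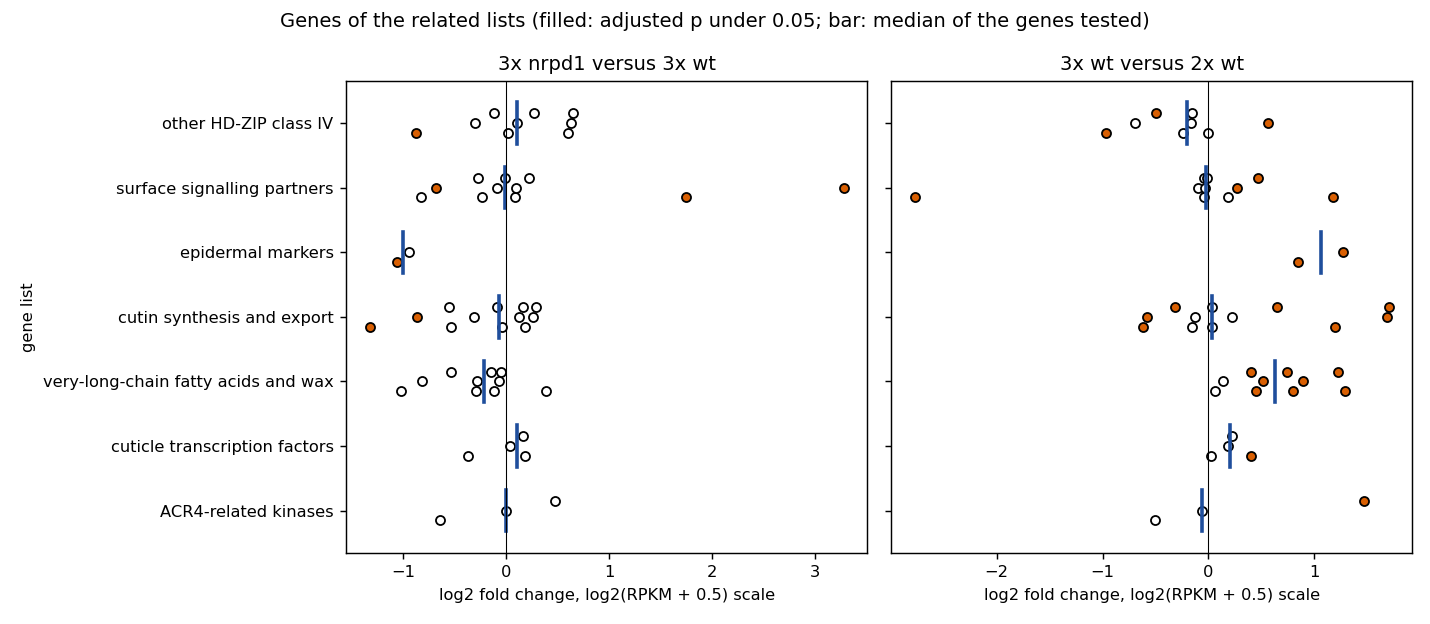
Log2 change of the tested genes of 7 related lists (x axis, log2(RPKM + 0.5) scale; rows, lists) in 3x nrpd1 versus 3x wt (left) and 3x wt versus 2x wt (right). Filled points passed at an adjusted p under 0.05, and the bar is the median of the genes tested. In 3x wt versus 2x wt, 8 of 10 wax and very-long-chain fatty acid genes are filled and right of 0, and KRS at -2.77 is the lowest point.

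For each member the gene with the most similar profile was found among 18553 genes, as the smallest root mean square difference of log2 values, each centred on its own mean, over the 12 libraries. For PDF2 this was AT3G58650 (TRM7), at a difference of 0.08, against a spread of 0.31 of PDF2 about its own mean. For ATML1 it was AT3G06030 (NP3), at 0.07 against 0.26, for ACR4 AT3G17450, at 0.08 against 0.33, and for ALE2 AT4G22350, at 0.07 against 0.26. For GSO1 it was AT4G23490, at 0.07 against 0.28, for GSO2 AT2G37930, at 0.06 against 0.29, and for FDH AT1G30600, at 0.06 against 0.18. For ALE1 it was AT2G14690, at 0.27 against 0.85. The members themselves were left out of the genes searched, so whether any member lies nearest to another member was not tested. Replicate 3 of 3x nrpd1, in which values follow gene length, enters all these profiles.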

How the data were processed

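Poly(A) RNA of dissected torpedo-stage embryos had been sequenced in 12 libraries. Per the study's methods and the submitters' notes, reads were trimmed with Trimmomatic, aligned to TAIR10 with TopHat2 at 1 position per read, so that near-identical genes may share reads, and counted per gene with GFOLD. The values deposited by the authors are RPKM. The study's supplement lists mapped reads per library, all above the rebuilt counts, and does not say which total lies behind the RPKM. The fragment counts were therefore rebuilt from value steps and TAIR10.1 exon lengths and are approximate. Only 31.7 to 40.5% of the low values in a library fell on a whole fragment.

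RPKM values were scaled by median ratios, and genes with at least 1 RPKM in 3 libraries of a fit were tested on log2(RPKM + 0.5) with limma 3.58.1 (trend) in R 4.3.3, on the 6 libraries of 2 groups, or on all 12 for the interaction, with Benjamini-Hochberg adjustment at 0.05. Scripts were tested on simulated data. The members and gene lists were chosen with earlier results of these data known. All members were named. From the signalling partners and the 2 epidermal markers all were named, and from each other list up to 3 genes of largest and 3 of smallest change among those that passed in 3x wt versus 2x wt, plus any DEG in 3x nrpd1 versus 3x wt. CER6, CER10, PAS2, MPK6 and markers of other tissues were named after their values were seen. Count models were not used because the deposited unit is RPKM. Each fit was repeated with another pseudocount (0.1 or 1), without the filter, with a mean of at least 5 RPKM, on unscaled RPKM, after quantile normalization, with a replicate block, with robust moderation, on all 12 libraries at once and leaving out each library. Protein sequences were not used here.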

Additional observations from a re-analysis of the deposited data

Results flagged for a closer look

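Genes were sought among the members and the related lists, without the markers of other tissues. For 10 of them the change from 2x to 3x embryos differed between the wt and the nrpd1 pollen donor. The test was the interaction over 12 libraries (limma, adjusted p under 0.05). On the lower side these were ALE1 (-2.12), PDF2 (-0.68), KRS (-3.23) and ZOU (-1.98), with adjusted p-values of 0.0271, 0.0393, 0.0099 and 0.0392. On the higher side these were PDF1 (1.29), LTP1 (1.30), CYP86A2 (0.91), GPAT4 (1.59), KCR1 (0.64) and CER2 (1.54), with adjusted p-values of 0.0318, 0.0374, 0.0173, 0.0088, 0.0173 and 0.0138. The 4 genes on the lower side are 2 members and the 2 endosperm genes known to act with ALE1, and the 6 on the higher side are outer-layer, cutin and wax genes. The lists searched hold only surface, cuticle and related genes, so this make-up was set by their choice. Over all genes tested, 6.74% passed on the higher side and 4.97% on the lower side, and on the higher side 3 of 6 seed coat markers and 2 of 12 inner embryo markers passed too. Some of those 6 seed coat markers passed the filter only with triploid libraries. CER2, at low levels, shares exon bases with a gene on the other strand. ZOU passed neither without the filter on low values (adjusted p = 0.0515) nor with a pseudocount of 0.1 (0.0560), and PDF1 (0.130) and LTP1 (0.0592) did not pass without the filter. Leaving out 1 library, with or without the filter, raised the adjusted p of this limma test above 0.05 for all but GPAT4 (up to 0.0452). It reached 0.257 for PDF1, 0.128 for LTP1, 0.125 for PDF2, 0.117 for ZOU and 0.103 for ALE1. For KCR1, CYP86A2, CER2 and KRS it reached 0.0632, 0.0612, 0.0586 and 0.0558. With 3 libraries per group no library was tested as an outlier.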

How the results depend on the processing

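With RPKM as deposited the median of all genes in 3x wt versus 2x wt shifted to -0.16, and under quantile normalization to -0.11, from -0.00 after median-ratio scaling. The genes that passed split into 4844 higher and 4374 lower after scaling, 3650 and 6123 as deposited, and 4059 and 5642 under quantile normalization. Sign changes were followed in the members and part of the listed genes, and were not counted over all genes tested. In 3x wt versus 2x wt PDF1 alone among the genes followed changed sign with its call, to -0.34 under quantile normalization. In 3x nrpd1 versus 2x nrpd1 the median was -0.14 as deposited.

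Of 8 members, 6 passed in 3x wt versus 2x wt, and 3 with all 12 libraries in one fit, where ATML1, GSO1 and GSO2 did not, a fall whose cause was not tested. With single libraries left out, 3 to 6 passed and 0 to 1 were DEGs. ALE1 fails the filter, and so is not tested, without any 2x wt library, without any 3x nrpd1 library in 3x nrpd1 versus 3x wt, and where a mean of 5 RPKM is required, which left 0 DEGs in 3x wt versus 2x wt, in 3x nrpd1 versus 3x wt and in the interaction. In 3x nrpd1 versus 3x wt, 2 members passed, and 1 with a mean of 5 RPKM, with RPKM as deposited or under quantile normalization. Leaving out single libraries gave 0 to 2 passing and 0 to 1 DEGs. In the interaction, 2 passed, and 1 with a mean of 5 RPKM, as deposited or under quantile normalization, with 0 to 2 passing and 0 to 1 DEGs when single libraries were left out. Why PDF2 lost its calls as deposited and under quantile normalization was not tested.

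Same-numbered libraries did not deviate together in every group pair (correlations from -0.19 to 0.25). Between 3x nrpd1 and 3x wt they correlated at 0.04 to 0.09, and libraries of other numbers at -0.06 to -0.003. Between 2x nrpd1 and 2x wt the values were 0.03 to 0.25 and -0.25 to 0.12. Whether the numbers pair samples of the same age was not tested, so the block is given as an alternative. With a replicate block, 1 member passed in 3x nrpd1 versus 3x wt, since PDF2 reached an adjusted p of 0.0595. ATML1 (0.0633) and GSO2 (0.0556) also lost their calls in 3x wt versus 2x wt with the block, and no other member's call changed. With the exon-length trend removed, a choice made after seeing the data, PDF2 (0.93) and ALE1 (1.97) passed in 3x nrpd1 versus 3x wt. A level of 3 fragments on a gene of 1000 bases stands at 0.221 to 0.438 RPKM, so ALE1 and ZOU in 3x wt lie close to what this depth can show. Their rebuilt counts are approximate, and they carry counting error beside the differences between replicate libraries.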
